A study of Mus musculus with 12 samples.

Results

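The genes described here encode the translation factors that bring ribosomes to an mRNA, start protein synthesis, move the ribosome along and end the chain. They were taken by gene symbol from the 2 deposited tables of RNA-seq in lung group 2 innate lymphoid cells (ILC2s), which list genes as lower or higher in tdTomato+ than in tdTomato- cells. The rule kept symbols that begin with Eif and a digit, Eef1, Eef2 or Gspt, and the symbol Etf1, and left out the Eif2ak kinases and the Eif4ebp and Eif4enif binding proteins. It found 38 of the 3439 listed genes. All libraries came from lungs of male Tigit fm mice, which carry both TIGIT-Cre-ERT2 and Rosa26-LSL-tdTomato and received nasal papain, a protease allergen, together with oral tamoxifen. The Tigit-Cre-ERT2 line was backcrossed to C57BL/6, and the age of the mice is not given in the sources used here. In this system tamoxifen allows Cre, made under the control of the Tigit locus, to switch on the red fluorescent protein tdTomato for good, so tdTomato+ marks cells that expressed TIGIT while tamoxifen was present. It is therefore a record of past expression, and both populations share the alleles, the papain and the tamoxifen. The labels give 4 RNA-seq libraries of tdTomato- and 4 of tdTomato+ ILC2s, each from a small number of sorted cells. Each listed gene has 1 average level over the libraries, without the values of the libraries it was made from. Which of the libraries entered that average is not stated in the sources used here, and it pools both populations, between which each listed gene was called different. The depth of the libraries and the spread between them are thus unknown, and the levels below carry no error and no test.

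Translation begins when the initiator tRNA, carried by eIF2, and the small ribosomal subunit, held by eIF1, eIF1A, eIF3 and eIF5, meet an mRNA whose cap and 5′ end have been prepared by the eIF4 factors. After the start codon is found, the large subunit joins with the help of eIF5B, eEF1 delivers the aminoacyl-tRNAs, and eEF2 moves the ribosome by a codon at a time, until the release factors eRF1 and eRF3 end the chain at a stop codon. Activated lymphocytes are known to raise their protein synthesis, and phosphorylation of eIF2 and the mTOR pathway, which acts on cap binding, are the well-known routes by which cells turn it down or up.

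All 38 translation factor genes were in the table of genes lower in tdTomato+ ILC2s, and 0 were in the table of higher genes. As the background for this count, 84.5% of all listed genes were in the lower table. Among listed protein-coding genes, the type of all 38, the share was 85.1%. It was 94.8% among listed protein-coding genes with an average log2 CPM (the log2 of read counts scaled to library size) over 6, the level that 32 of the 38 passed. The share of the translation factors was thus near that of other well-expressed listed genes. Both tables hold only genes that had passed the filters of the deposited comparison on false discovery rate and on average level, the lowest average log2 CPM being 5.00 in each, so a gene in neither table cannot be called unchanged. The listing is also relative, since CPM is a share of the reads of a library. The average CPM summed to 384000 over the 2906 lower genes and to 141000 over the 533 higher genes, of which 1 was over 10000 CPM. In bulk libraries, fewer cells of a type and less RNA per cell cannot be told apart. The markers chosen for ILC2s were all listed as lower (13 of 13, with average log2 CPM from 6.27 to 9.98), Gata3 and the IL-33 receptor gene Il1rl1 among them. In flow cytometry the study gated lung ILC2s as CD45+ cells without lineage markers and with CD127, CD25 and ST2, and whether the RNA-seq sort used these same markers is not spelled out in the sources used here. Of 12 markers chosen for T, B and NK cells, macrophages, epithelium, endothelium and fibroblasts, 0 were in either table. Their levels cannot be read from the tables. For its RNA-seq samples the study reported low expression of lineage markers, without a statistical difference between the samples. The part of other cell types in the listing was not tested here.

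The number of listed genes differed between the complexes. A fixed list of the known subunits and related genes held 55 genes, and 17 of them were in neither table. As a background, of 27025 genes with a RefSeq promoter window, expressed or not, 2329 were listed as lower and 402 as higher. The share among expressed genes cannot be read from the listing, and the difference between complexes was not tested. Listed as lower were 2 of 4 eIF1 genes, 4 of 4 eIF2 genes, 12 of 14 eIF3 genes, 9 of 11 eIF4 genes, 3 of 4 eIF5 genes, the eIF6 gene, 4 of 6 eEF1 genes, the eEF2 gene and 2 of 3 release factor genes. None of the 5 genes of eIF2B, which recharges eIF2 with GTP and is the point where the stress response acts, was listed (0 of 5: Eif2b1, Eif2b2, Eif2b3, Eif2b4 and Eif2b5). Neither Eif2a nor Eif2d, which encode alternative carriers of the initiator tRNA, was listed. The other absent genes were Eif1b, Eif1ad, Eif3j1, Eif3j2, the cap-binding protein gene Eif4e, Eif4e3, Eif5a2, Eef1a2, Eef1e1 and Gspt2.

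**Figure D1:**
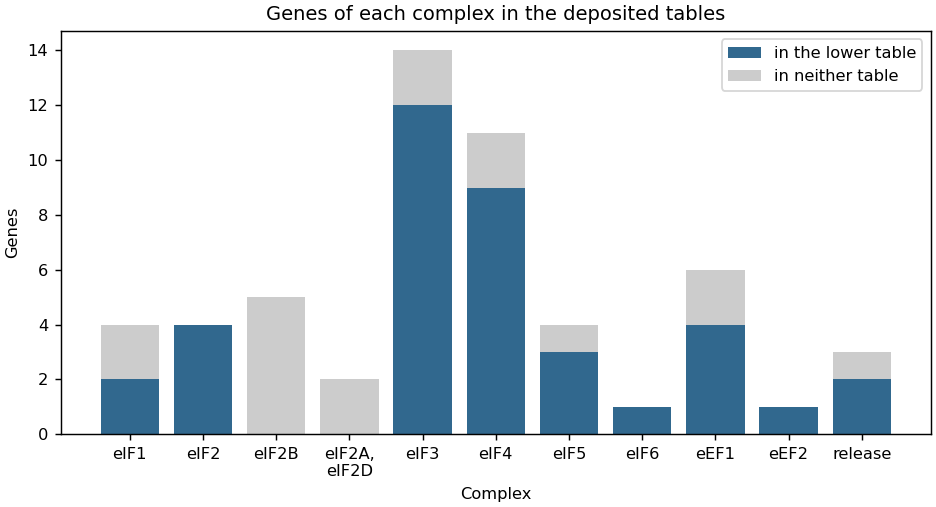
Number of genes of each translation factor complex (vertical axis) that were in the table of genes lower in tdTomato+ ILC2s (blue) or in neither table (grey), by complex (horizontal axis). The eIF2 bar is all blue (4 of 4), the eIF3 bar holds 12 of 14, and the eIF2B bar is all grey (0 of 5).

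The average levels of the 38 genes spanned a wide range. Their median average log2 CPM was 6.77, with quartiles at 6.13 and 7.58, against a median of 6.39 and quartiles at 5.80 and 7.11 in the 2906 lower genes. Of the 38 genes, 25 (65.8%) were above the median of the lower genes, 15 (39.5%) were above their upper quartile and 4 were below their lower quartile. Long transcripts collect more reads, so ratios and orders of single genes are given after dividing CPM by the length of their exons in kb (CPM per kb of exon), and where coding length changes them the values per kb of coding sequence follow. Log2 CPM and shares of summed CPM are not corrected for length. On that scale the median was 25.8 for the translation factors and 15.4 for the lower genes, and 28 of 38 (73.7%) were above the latter. The average CPM of the translation factors summed to 10374, which was 2.7% of the sum over the lower genes, and Eef1a1 and Eef2 together made up 51.4% of it. The rank correlation between average log2 CPM and exonic length was 0.061 across the 38 genes and 0.41 across the lower genes, as a description over genes that share the same libraries.

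**Figure D2:**
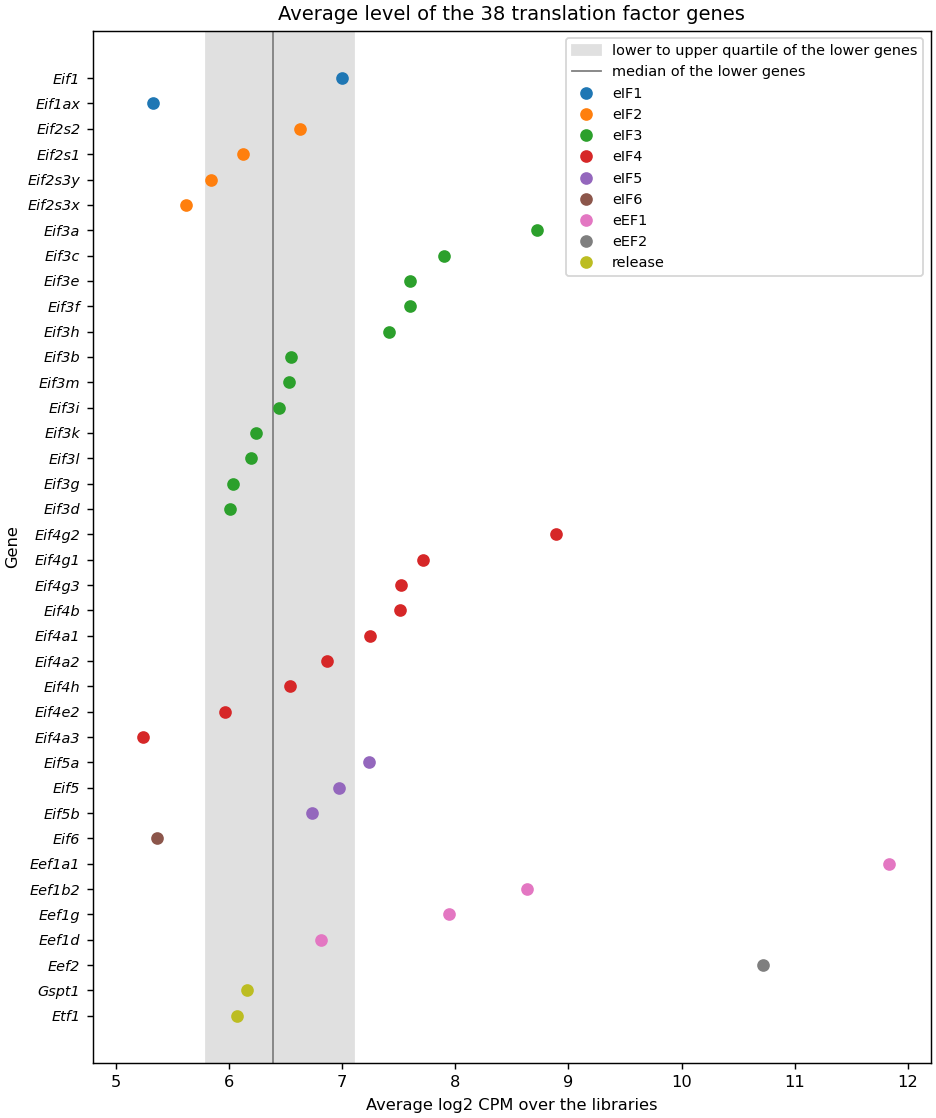
Average log2 CPM over the libraries (horizontal axis) of each of the 38 translation factor genes (vertical axis), coloured by complex. The grey band reaches from the lower to the upper quartile of the 2906 lower genes (5.80 to 7.11) and the line is their median (6.39); Eef1a1 (11.83) and Eef2 (10.72) stand far to the right, and Eif4a3 (5.24), Eif1ax (5.33) and Eif6 (5.36) at the left.

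The eEF1 genes held the highest level of the translation factors and were spread widely. Eef1a1, which encodes the GTPase that brings aminoacyl-tRNA to the ribosome (chr9:78478449-78489151, minus strand, GRCm38), had an average log2 CPM of 11.83 and 1459 CPM per kb of exon, the 5th highest per kb of exon in the lower table. Eef1b2, a subunit that recharges eEF1A with GTP, had an average log2 CPM of 8.63 and 157 CPM per kb of exon. Eef1g, which holds the recharging complex together, had 7.95 and 95.1 in the same units. Eef1d, another recharging subunit, had 6.81 and 17.3. The carrier gene Eef1a1 was thus 9.31 times as high as Eef1b2 per kb of exon, and Eef1b2 was 1.65 times as high as Eef1g and 9.04 times as high as Eef1d. Between the highest and the lowest of these 4 genes, the level per kb of exon differed 84.1 times. Per kb of coding sequence the order of the 4 was the same, but Eef1a1 was 4.46 times as high as Eef1b2 and 46.2 times as high as Eef1d. By that length Eef1b2 was 3.12 times as high as Eef1g and 10.4 times as high as Eef1d.

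Eef2, the GTPase that moves the ribosome to the next codon (chr10:81176631-81182498, plus strand, GRCm38) had an average log2 CPM of 10.72 and 509 CPM per kb of exon, next to Eef1a1 the highest level per length of the 38. Eef1a1 was 2.87 times as high as Eef2 per kb of exon and 3.99 times as high per kb of coding sequence. The 5 elongation factor genes made up 58.6% of the summed CPM of the 38 genes.

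The subunits of eIF2 stood close together per kb of exon. Eif2s1, the alpha subunit whose phosphorylation stops initiation under stress, had an average log2 CPM of 6.13 and 14.1 CPM per kb of exon. Eif2s2, the beta subunit, had 6.62 and 14.6. The gamma subunit, which binds the initiator tRNA, is encoded in mice by both an X-linked and a Y-linked gene. The X-linked Eif2s3x had an average log2 CPM of 5.62 and 12.9 CPM per kb of exon, and the Y-linked Eif2s3y had 5.84 and 13.8. The highest and the lowest of the 4 genes differed 1.13 times per kb of exon. This closeness depended on the length used, since per kb of coding sequence they differed 2.85 times, from 34.8 for Eif2s3x to 99.4 for Eif2s2. The coding sequences of Eif2s3x and Eif2s3y were identical at 86.3% of aligned positions, so part of their reads could be shared, and the sources used here do not state how reads with several matches were counted.

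The 12 listed subunits of eIF3, the large scaffold that binds the small ribosomal subunit, had a median average log2 CPM of 6.54 and made up 17.1% of the summed CPM of the 38 genes. Eif3a, the largest subunit of the scaffold (chr19:60761117-60790658, minus strand, GRCm38), had an average log2 CPM of 8.72 and 48.2 CPM per kb of exon. Eif3c, its partner in the core, had 7.90 and 68.0. Eif3e and Eif3f had average log2 CPM of 7.60 each, with 28.9 and 67.0 CPM per kb of exon. Eif3h had 7.41 and the highest level per length, 106 CPM per kb of exon. Eif3m had 6.53 and 35.7, Eif3k had 6.24 and 28.1, and Eif3l had 6.20 and 20.2. These 8 genes form the ring of the complex and were all above the median of the lower genes (15.4) per kb of exon.

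The remaining eIF3 subunits lie outside the ring. Eif3b, the scaffold of the module that also holds Eif3g and Eif3i, had an average log2 CPM of 6.55 and 28.0 CPM per kb of exon. Eif3i had 6.45 and 23.6, and Eif3g had 6.04 and 33.1. Eif3d, which can bind the cap of some mRNAs itself, had 6.01 and the lowest level per length of the 12, 13.0 CPM per kb of exon. The highest and the lowest eIF3 subunit differed 8.13 times per kb of exon and 4.61 times per kb of coding sequence. The order was not the same by the other length: 0 of the 12 subunits kept their place, 7 moved by more than 2 places, and Eif3f (179 CPM per kb of coding sequence) rather than Eif3h (161) came first. The 2 genes for subunit j, Eif3j1 and Eif3j2, were not listed, and their coding sequences were identical at 99.2% of 789 aligned positions. Reads on identical stretches match both genes, and how such reads were counted is not given in the sources used here.

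**Figure D3:**
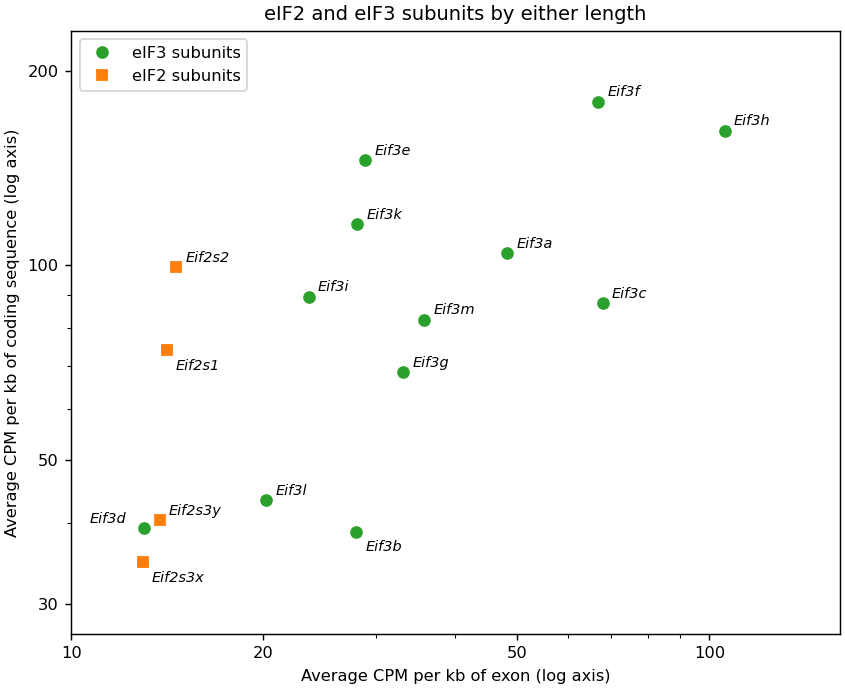
Average CPM per kb of exon (horizontal, log axis) against average CPM per kb of coding sequence (vertical, log axis) for the 12 listed eIF3 subunits (circles) and the 4 eIF2 subunits (squares). The eIF2 subunits lie between 12.9 and 14.6 on the horizontal axis but between 34.8 and 99.4 on the vertical one.

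The 9 listed eIF4 genes encode scaffolds, helicases, their helpers and a cap-binding protein. Eif4g2, a relative of eIF4G that lacks the cap-binding part and works on other routes of initiation (chr7:111067750-111083030, minus strand, GRCm38), had an average log2 CPM of 8.89 and 46.6 CPM per kb of exon, the highest level per length of the 9. Eif4g1, the main scaffold, had 7.72 and 28.8, and its paralog Eif4g3 had 7.52 and 16.6. Per kb of exon, Eif4g2 was 1.62 times as high as Eif4g1 and 2.81 times as high as Eif4g3, and per kb of coding sequence 3.98 and 5.03 times as high.

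The helicase genes of eIF4 ran in the order Eif4a1, Eif4a2 and Eif4a3 per kb of exon. Eif4a1, the main helicase that unwinds 5′ ends, had an average log2 CPM of 7.25 and 35.2 CPM per kb of exon, and its close paralog Eif4a2 had 6.87 and 21.9. Eif4a3, which serves in the exon junction complex laid down by splicing, had 5.24 and 17.9 CPM per kb of exon. Eif4a1 was 1.97 times as high as Eif4a3 per kb of exon and 4.07 times as high per kb of coding sequence. Coding identity was 77.8% between Eif4a1 and Eif4a2 and 65.7% between Eif4a1 and Eif4a3.

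Both helper proteins of the helicase were listed. Eif4b had an average log2 CPM of 7.51 and 40.8 CPM per kb of exon, and Eif4h had 6.54 and 16.8. Their order turned by coding length, with 99.5 for Eif4b and 125 for Eif4h per kb of coding sequence. Of the 3 cap-binding protein genes that were sought, the listed one was Eif4e2, whose product can hold a cap without recruiting the scaffold. It had an average log2 CPM of 5.97 and 8.33 CPM per kb of exon. Per kb of exon it was the lowest of the 38 but for Eif1ax, whereas per kb of coding sequence (80.4) 15 of the 38 were lower.

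The factors of start codon choice and subunit joining follow, with eIF6. Eif1, which checks the start codon, had an average log2 CPM of 7.00 and 60.9 CPM per kb of exon. Eif1ax, the X-linked gene of the scanning factor eIF1A, had 5.33 and 7.63 CPM per kb of exon. This was the lowest of the 38 per kb of exon, but per kb of coding sequence Eif1ax had 93.0, above the median of the 38 (91.2), and Eif5b was the lowest with 29.2. Eif5, which triggers GTP hydrolysis by eIF2, had 6.97 and 18.4. Eif5b, the GTPase that joins the subunits, had 6.73 and 10.9. Eif5a, which carries the hypusine residue and relieves stalled ribosomes, had 7.24 and 63.7, and was 5.84 times as high as Eif5b per kb of exon and 11.2 times per kb of coding sequence. Eif6, which keeps free large subunits apart from small ones, had 5.36 and 15.2.

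At the end of the cycle, Gspt1 (eRF3a) had an average log2 CPM of 6.16 and 13.1 CPM per kb of exon, and Etf1 (eRF1), which reads the stop codon, had 6.07 and 18.1. Both release factor genes were within 1.38 times of each other per kb of exon.

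**Figure D4:**
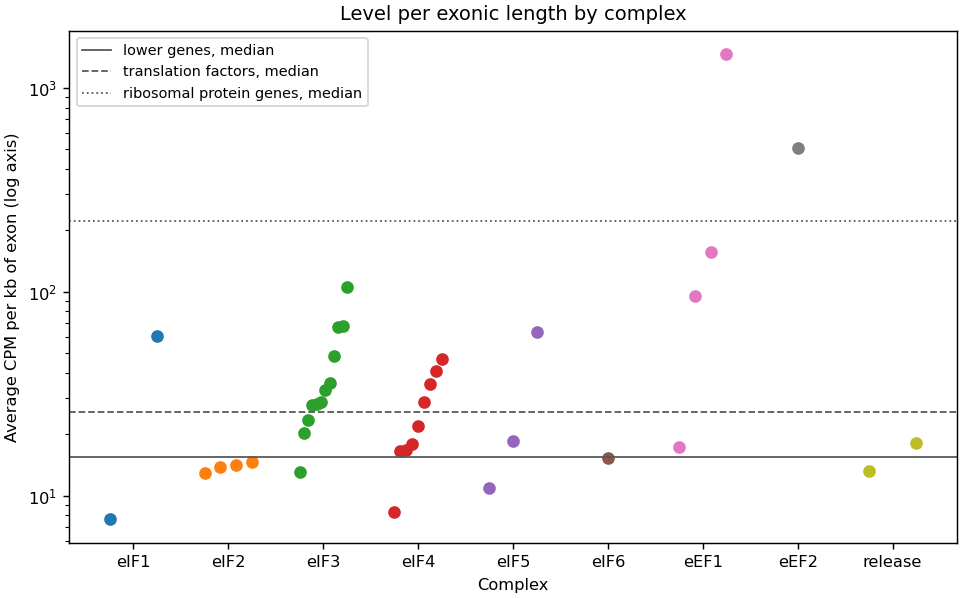
Average CPM per kb of exon (vertical, log axis) of each listed translation factor gene, by complex (horizontal axis), with the medians of the lower genes (15.4), the translation factors (25.8) and the ribosomal protein genes (221) as lines. The 4 eIF2 genes form a flat row just under the lower-gene median, whereas the eEF1 genes spread from 17.3 to 1459.

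The other genes of the translation machinery were read beside them. All 76 listed genes of cytosolic ribosomal proteins were in the lower table and 0 in the higher one, with a median average log2 CPM of 8.59 and a median of 221 CPM per kb of exon. Of the translation factors, 2 (Eef1a1 and Eef2) were above that median per kb of exon. Of 22 genes for cytosolic aminoacyl-tRNA synthetases and their scaffold proteins, 11 were listed, all as lower, with a median of 14.6 CPM per kb of exon. They included Eprs (average log2 CPM 8.13), which joins glutamate and proline to their tRNAs, and Vars (7.34), which does so for valine. Of 7 poly(A)-binding, reinitiation and recycling genes, 4 were listed as lower. In the order of their levels per kb of exon, these were the poly(A)-binding protein gene Pabpc1 (119), Paip2 (22.1), the ribosome recycling gene Abce1 (14.0) and Pabpc4 (13.2). Of 9 regulators, 2 were listed, both as lower. These were Eif4ebp2 (6.31), whose product blocks eIF4E, and Eif4enif1 (5.70), whose product carries it to the nucleus. The eIF2 kinase genes Eif2ak1 to Eif2ak4 and the eEF2 kinase gene Eef2k were in neither table.

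All 38 genes were typed as protein coding, and they lay on 15 chromosomes, with 6 on chromosome 15 and 4 each on chromosomes 7 and 11. Their exons were shorter than those of the lower genes (median 3986.5 against 5194 bases), and so were their coding sequences (1299 against 1531.5 bases). Near-identical copies were frequent. In the mouse annotation, 19 of the 38 coding sequences matched at least 1 other gene at 90% identity or more over at least 50% of their length, and 62 such matches were to pseudogenes. Eif1 had 20 of these pseudogene copies and Eef1a1 had 13, while Eef1g and Eif2s1 had 4 each. The levels of these 19 genes are uncertain to the extent that their reads fell on copies. The other 19, among them Eif3a, Eif3c, Eif3f, Eif4g1, Eif4g2, Eif4g3 and Eef1b2, had no match at these limits, and their median average log2 CPM was 6.55.

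The promoters of the translation factor genes were read for short motifs, since the 38 genes were listed in the same direction. RefSeq promoter windows (GRCm38.p6, from 250 bases before to 50 after an annotated start) were at hand for 30 of the 38 genes, all but Eif3e, Eif3h, Eif3i, Eif4g2, Eif6, Eef1d, Eef1g and Etf1. A gene was counted if any of its starts held the motif on either strand. The motif CACGTG, the E-box known to be bound by Myc and its relatives, was in the windows of 8 of 30 translation factor genes (26.7%), against 12.3% of 2329 lower genes, 5.47% of 402 higher genes, 8.93% of 56 ribosomal protein genes and 8.09% of all 27025 genes of the promoter table. The 8 genes cover the eIF3, eIF4, eIF5 and eEF2 groups. The windows around their E-boxes are shown because the share in the translation factors was more than 2 times that in the lower genes. A single E-box is shown for each gene. Eif4g1 held another at base 16 of the transcript, and Eif5a held another before other annotated starts. Each line is 40 bases of the gene's own strand, 5′ to 3′, with CACGTG in capitals, and capitals elsewhere mark CCGGAA or AAGATGGC.
Eif3a, chr19:60790664-60790703, minus strand: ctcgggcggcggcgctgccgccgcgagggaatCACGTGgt
Eif3f, chr7:108934330-108934369, plus strand: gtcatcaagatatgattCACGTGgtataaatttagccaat
Eif3k, chr7:28981910-28981949, minus strand: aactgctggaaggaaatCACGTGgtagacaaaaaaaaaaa
Eif4a1, chr11:69672590-69672629, minus strand: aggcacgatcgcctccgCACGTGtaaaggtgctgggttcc
Eif4g1, chr16:20672656-20672695, plus strand: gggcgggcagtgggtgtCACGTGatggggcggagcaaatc
Eif4h, chr5:134639483-134639522, minus strand: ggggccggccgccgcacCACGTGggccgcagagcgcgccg
Eif5a, chr11:69920786-69920825, minus strand: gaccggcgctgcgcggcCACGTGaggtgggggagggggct
Eef2, chr10:81176571-81176610, plus strand: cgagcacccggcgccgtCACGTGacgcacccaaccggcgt
Some of the bases beside the motif were shared, with tCACGTGgt in Eif3a, Eif3f and Eif3k and gtCACGTGa in Eif4g1 and Eef2. The distance from the annotated start ran from 189 bases before it in Eif4a1 to 23 after it in Eif3a. In the 100 bases around the start, 4 of 30 translation factor genes (13.3%) held the motif, against 5.24% of the lower genes.

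The ETS motif CCGGAA was in the windows of 13 of 30 translation factor genes (43.3%), against 32.8% of the lower genes, 7.96% of the higher genes, 58.9% of the ribosomal protein genes and 16.7% of all genes. In the 100 bases around the start, the translation factors (20%) and the lower genes (18.2%) were close. It was in 6 of the 9 eIF3 genes that have a window. Their sequences are shown because eIF3 is the complex with the most listed subunits. CCGGAA, or TTCCGG where it lies on the other strand, is in capitals.
Eif3c, chr7:126566377-126566416, minus strand: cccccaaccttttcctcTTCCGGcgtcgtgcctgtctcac
Eif3d, chr15:77970871-77970910, minus strand: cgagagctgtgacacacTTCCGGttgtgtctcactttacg
Eif3f, chr7:108934292-108934331, plus strand: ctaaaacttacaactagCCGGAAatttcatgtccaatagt
Eif3g, chr9:20898612-20898651, minus strand: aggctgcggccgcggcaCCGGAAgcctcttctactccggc
Eif3l, chr15:79075172-79075211, plus strand: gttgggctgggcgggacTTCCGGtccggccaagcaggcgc
Eif3m, chr2:105017060-105017099, minus strand: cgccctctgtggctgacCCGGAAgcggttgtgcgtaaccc
In Eif3c, Eif3d, Eif3g, Eif3l and Eif3m the copies shown lay from 69 to 33 bases before the annotated start, and in Eif3f 106 bases before it. A single copy is shown for each gene. Further copies lay 67 bases before the start in Eif3c, 71 in Eif3l, and 170 and 13 in Eif3m. Only Eif3f and Eif5a of the 30 genes held both CCGGAA and CACGTG.

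The motif AAGATGGC, the core known to be bound by YY1, was in 4 of 30 translation factor genes (13.3%), against 6.1% of the lower genes, 1.24% of the higher genes, 8.93% of the ribosomal protein genes and 3.19% of all genes. In 3 of the 4 its ATG was the start codon itself. These 3 are shown because both genes of the eIF2 gamma subunit are among them, with AAGATGGC in capitals.
Eif2s3x, chrX:94212622-94212661, minus strand: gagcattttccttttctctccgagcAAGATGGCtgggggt
Eif2s3y, chrY:1010585-1010624, plus strand: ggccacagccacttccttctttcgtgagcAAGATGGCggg
Eif3f, chr7:108934405-108934444, plus strand: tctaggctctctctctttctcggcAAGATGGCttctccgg
The fourth, Eif4a1, held it 166 bases before its start. In the X-linked and Y-linked gene the motif began at base 16 and base 20 of the transcript.

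A run of at least 8 pyrimidines within 30 bases of the start is a loose mark of the 5′ terminal oligopyrimidine tract, through which mTOR is known to control the translation of ribosomal protein and elongation factor mRNAs. It was in 8 of 30 translation factor genes (26.7%), against 53.6% of the ribosomal protein genes, 29.2% of the lower genes, 29.4% of the higher genes and 25.8% of all genes. The translation factors were thus near all genes in this measure and below the ribosomal protein genes. The runs of the genes with the highest levels are shown in capitals.
Eef1a1, chr9:78481702-78481741, minus strand: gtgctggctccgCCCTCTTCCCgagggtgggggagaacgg
Eef2, chr10:81176621-81176660, plus strand: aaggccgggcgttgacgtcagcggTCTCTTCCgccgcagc
Both runs were short (10 and 8 bases), while the longest was the 16 bases of Eif2s3x. The Eef1a1 run began 5 bases before the annotated start and the Eef2 run at base 15 of the transcript. Neither began at the annotated start itself. Annotated starts can be off by some bases, and a run counted here need not be the first base of the mRNA.

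Of the other motifs, the GC box GGGCGG was in 73.3% of the translation factor genes and 75.9% of the lower genes, against 42.5% of the higher and 38.2% of all genes. CCAAT was in 23.3% of the translation factor genes and 28.6% of the ribosomal protein genes, against 41.8% of the lower, 43.8% of the higher and 41.1% of all genes. In the 100 bases around the start these shares were closer, at 13.3% and 10.7%, against 16.3%, 14.7% and 15.6%. TATAAA was in 16.7% of the translation factor genes, against 8.97% of the lower, 17.9% of the higher and 15.7% of all genes. That difference from the lower genes turned in the 100 bases around the start, where TATAAA was in 3.33% and 4.12%. The GATA motif AGATAA was in 3.33% of the translation factor genes, against 7.21% of the lower, 13.2% of the higher and 12.7% of all genes. The median GC content of the windows was 61.7% for the translation factor genes, 62.7% for the lower genes, 54.7% for the higher genes and 52.7% for all genes, and its part in the shares was not tested. A match of these letters is a description of the window and does not show that a factor binds there.

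**Figure D5:**
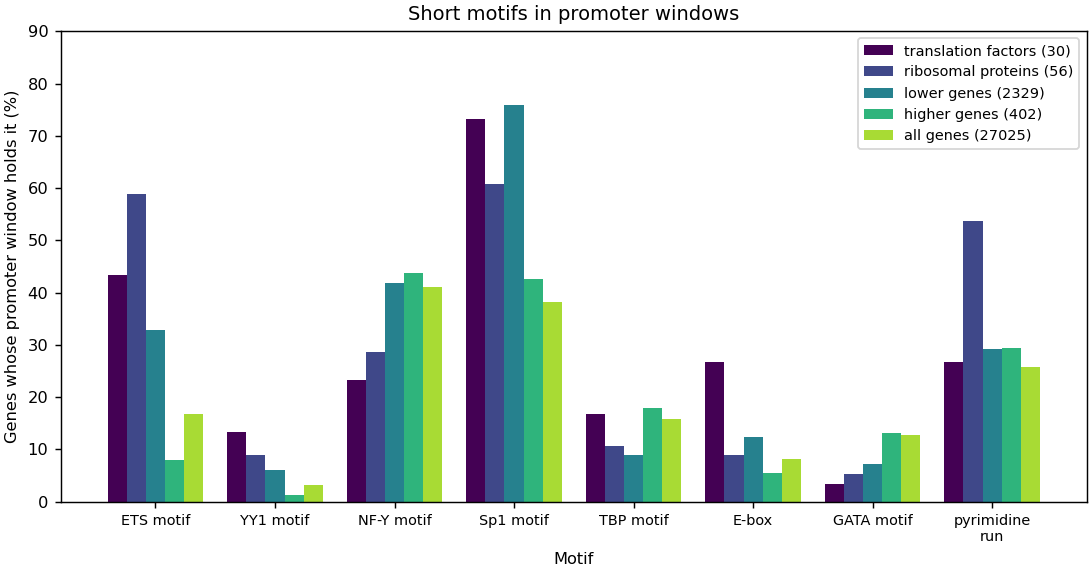
Share of genes whose RefSeq promoter window holds each motif (vertical axis, %), for the translation factors, the ribosomal protein genes, the lower genes, the higher genes and all genes of the promoter table, with their number in the legend. The motifs are named by the factors known to bind them (NF-Y for CCAAT, Sp1 for the GC box, TBP for TATAAA). The E-box is at 26.7% in the translation factors and 12.3% in the lower genes.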

How the data were processed

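RNA of sorted tdTomato- and tdTomato+ lung ILC2s was sequenced with a stranded low-input SMART kit. According to the methods and the submitters' processing notes, the authors aligned reads with STAR, counted them with featureCounts of Subread on Ensembl genes and compared the populations with edgeR. The methods name GRCm39 and the Ensembl release used for counting, and the notes name mm10. Software versions, normalization, strand setting and the treatment of reads with several matches are not given in the sources used here. The deposited values used were the authors' average log2 CPM over the libraries, 1 for each listed gene. The tables also hold the authors' fold changes, likelihood ratios, p-values and false discovery rates of tdTomato+ against tdTomato- cells, which were not used. The direction of a gene is the table that lists it. Per-sample columns left unused numbered 0. ATAC-seq data (2 libraries per population) were not used here.

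Average CPM was 2 to the power of the deposited value. Exonic length (union of exons), coding length (longest coding transcript) and positions were read from the GENCODE M21 annotation (GRCm38) by Ensembl identifier, which matched 38 of 38 translation factor genes, 2905 of 2906 lower and 531 of 533 higher genes. Copies were sought with BLAST+ 2.17.0 (megablast). Motifs were counted in RefSeq windows, and the steps were tested on simulated data with Python 3.11.15, pandas 2.3.3 and Biopython 1.88. All 38 genes are named, with full values by complex. The gene lists and members were chosen with earlier results of these data known. A further gene list is not reported here. No test was run, because no values of single libraries were at hand. Alternatives were other symbol and level limits, medians without some genes, another length, another reference and other motif windows. The most upstream start, the median without Eef1a1 and Eef2, that without copied genes and the ratios and ranks of single genes and eIF2 subunits by coding length were chosen after the data were seen.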

Additional observations from a re-analysis of the deposited data

How the results depend on the processing

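The number of translation factor genes in the lower table was 38, and it was 40 with the Eif4ebp and Eif4enif symbols kept and 32 above an average log2 CPM of 6. The median average log2 CPM, 6.77 in the report, was 6.55 without the elongation factors, 6.84 without eIF3, 6.54 as the median of the complex medians, 6.68 without Eef1a1 and Eef2 and 6.55 without genes that have a near-identical copy. It stayed above the median of the lower genes (6.39) in each of these. Per kb of coding sequence the median level was 91.2 CPM, the eIF3 subunits differed 4.61 times and the eIF2 subunits 2.85 times. The share of genes above the median level was 68.4% against all listed genes and 65.8% against lower genes. On the gene's own strand alone, CCGGAA was in 26.7% and GGGCGG in 46.7% of the translation factor genes, against 18.9% and 54.4% of the lower genes. In the 100 bases around the start, CCGGAA was in 20%, GGGCGG in 50%, TATAAA in 3.33%, CACGTG in 13.3% and AGATAA in 0% of them, against 18.2%, 51.9%, 4.12%, 5.24% and 1.42% of the lower genes. Shorter or single-strand windows hold fewer matches by construction. The most upstream start alone left each motif share within its 95% Wilson interval. No paired analysis was possible because the tables hold no value of a single library. For the same reason no library could be left out, and the depth that would limit each value is unknown.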
